A study of Rattus norvegicus with 69 samples.

Results

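The genes described here are 98 rat genes whose RNA was concentrated in isolated round spermatids and whose level along the seminiferous tubule was highest at stage VIIa.b, VIIc.d or VIII. They were 98 of 14217 genes named on the array, and each was measured by 1 probe set of the 31042 used. They were chosen on the group means of the array signal, with means below 20 set to 20. The mean in Round Spermatid samples had to be at least 100 and at least 4 times each mean in pachytene spermatocytes, in spermatogonia plus early spermatocytes and in Sertoli cells. The highest of the 10 stage means had to be at least 100 and at least 2 times the lowest. One further gene that met this rule, Tekt5, was left out by name. Because these values chose the genes, the cell and stage differences below are a description and no evidence for the choice.

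Tubules and isolated cells came from Sprague Dawley rats, with no treatment named in the labels. Round spermatids and pachytene spermatocytes (4 samples each) were separated by centrifugal elutriation from rats of 55 to 60 days, spermatogonia plus early spermatocytes (3 samples) from rats of 18 to 20 days, and Sertoli cells came as 4 samples from rats of 55 to 60 days. The labels gave a purity of 85% to 95% for the germ cells and of about 85% for Sertoli cells. Tubules were dissected under transillumination into 10 stage groups. Before the peak stages VIIa.b, VIIc.d and VIII came I, II-III, IV-V and VI, and after them came IX-XI, XII and XIII-XIV. Each group had 5 samples, except 4 for IV-V, and each sample pooled 2 rats of 55 to 60 days. Whole testis gave 5 samples, whose strain and age the labels leave unstated. The labels differ on 1 group, with IX-XII in the source names and IX-XI, as used here, in titles and protocol.

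A round spermatid is the haploid cell that leaves meiosis, builds the acrosome cap over its nucleus and starts to grow a flagellum. In the rat, one generation of round spermatids develops through stages I to VIII of the epithelial cycle, beside an older generation of elongating spermatids that is released as sperm at stage VIII. From stage IX the nucleus of the younger generation elongates, its chromatin is condensed and transcription ceases, so that many messenger RNAs made before are stored for later translation. Transcription in round spermatids is known to involve the activator CREM, which binds the cAMP response element, and factors of the RFX family. In an extract of whole tubules, fewer cells of a type and less RNA per cell cannot be told apart, nor can RNA of the 2 spermatid generations that share stages I to VIII.

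Of the 98 genes, 32 were highest at VIIa.b, 50 at VIIc.d and 16 at VIII. These counts depended on single replicates: with 1 replicate number left out, the rule placed 25 to 40 genes at VIIa.b, 45 to 52 at VIIc.d and 8 to 24 at VIII, with the fewest at VIII without replicate 2 and the most without replicate 4. Of the 98 genes, 75 met the rule in all 5 such runs, and each run lost 3 to 11. Among genes named here or below, Fam209 was lost without replicate 1 or 4, and Klc3 and Srcin1 without 1 or 2. Tmem239 was lost without 1, 2 or 4, Pim1 without 2, 3 or 4, Ankrd53 without 3 or 4 and Tspy1 without 4 or 5. Adgrv1, C8h3orf84, Fam151b and Usp30 were lost without 1, Arl9, Bicral and Tsks without 3, and Trim66 without 4. RefSeq listed 95 as protein coding and 2 as long noncoding RNAs (1700122O11Rikl and LOC102553131), and gave no entry for Micalcl. Of 97 genes with a chromosome, 2 lay on X (2.06%, Ribc1 and Samt3), against 617 of 20758 probe sets overall (2.97%), and Tspy1 lay on Y. Just inside the rule, the ratio of round spermatids to the next cell group was 4.02 for Tmem239, 4.18 for Ankrd53 and 4.19 for Usp30. Just outside it were C5h6orf163 and a second probe set of Igf2bp3 (3.99 each) and Fbxl7 (3.98). For the stage ratio, Pim1 (2.01), Arl9 (2.06) and Tsks (2.07) were just inside, and Ace (1.89), Asb13 (1.88) and Rab3il1 (1.87) just outside.

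Promoter sequence was one property that the rule did not use. RefSeq windows of the assembly GRCr8, from 250 bases before to 50 bases after the start of each gene, were matched to 82 of the 98 genes by gene identifier. The last 120 bases before the start are shown for 6 genes that the results return to, covering all 3 peak stages and windows with and without the motifs searched. Capitals mark 3 short motifs. The partial site of the cAMP response element is TGACG, read as CGTCA on the opposite strand. The partial RFX site is GTTGCC, read as GGCAAC on the opposite strand. The TATA box, TATAAA, was searched along the gene's own direction only. Fam209 at chr3:181658359-181658478 (plus strand) and Mtnap1 at chr10:99227686-99227805 (plus strand) were highest at VIIa.b, Spag4 at chr3:165041059-165041178 (plus strand) at VIIc.d, and Garin4 at chr13:105276288-105276407 (minus strand), Klc3 at chr1:88183423-88183542 (minus strand) and Cimap1b at chr7:122326922-122327041 (minus strand) at VIII.
Fam209: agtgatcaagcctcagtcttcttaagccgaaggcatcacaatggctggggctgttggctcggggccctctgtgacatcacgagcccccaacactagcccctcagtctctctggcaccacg
Mtnap1: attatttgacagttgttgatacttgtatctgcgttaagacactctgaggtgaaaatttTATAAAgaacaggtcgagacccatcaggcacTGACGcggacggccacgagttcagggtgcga
Spag4: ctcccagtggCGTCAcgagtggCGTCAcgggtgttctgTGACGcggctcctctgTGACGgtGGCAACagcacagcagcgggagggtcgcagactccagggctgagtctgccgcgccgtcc
Garin4: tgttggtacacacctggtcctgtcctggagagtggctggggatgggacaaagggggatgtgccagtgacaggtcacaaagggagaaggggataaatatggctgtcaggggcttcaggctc
Klc3: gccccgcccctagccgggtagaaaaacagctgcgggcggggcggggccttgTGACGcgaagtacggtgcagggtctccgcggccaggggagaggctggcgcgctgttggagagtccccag
Cimap1b: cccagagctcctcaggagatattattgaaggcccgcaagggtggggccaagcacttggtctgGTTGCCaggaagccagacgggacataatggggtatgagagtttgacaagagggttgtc
The stretch of Spag4 held 4 partial sites of the cAMP response element and 1 partial RFX site. Mtnap1 had 1 partial site of that element and a TATA box, Klc3 had 1 partial site and Cimap1b had 1 partial RFX site. None of these letters occurred in the stretches of Fam209 and Garin4, which says nothing of the factors that bind there. Over the whole windows, a partial site of the cAMP response element was found in 21 of 82 genes (25.6%), against 22.0% of 27457 RefSeq genes. The complete element TGACGTCA, which contains the partial sites, was found in 2 of 82 genes (2.44%, Tspy1 and Vps37b) against 1.91% of all. A partial RFX site was found in 15 of 82 genes (18.3%) against 12.2% of all, and TATAAA in 5 of 82 (6.10%) against 9.08% of all. These shares describe the windows and were not tested.

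The isolated cells served as a check of the label. All 9 measured round spermatid markers were highest in the round spermatid samples among the 4 cell groups, and so were all 13 measured markers of elongating spermatids. Of 9 pachytene markers, 3 were highest in round spermatids and 5 in pachytene spermatocytes, and their summed signal was 15878 to 17763 in round spermatids, within the 14434 to 21414 of pachytene spermatocytes. These markers thus did not separate the 2 cell groups. The summed signal of the elongating spermatid markers was 38817 to 50146 in round spermatid samples, against 14109 to 20111 in pachytene spermatocytes, 2138 to 8063 in Sertoli cells and 379 to 424 in spermatogonia plus early spermatocytes. Leydig cell markers (8 genes) summed to 285 to 387 in round spermatids, against 277 to 472 in pachytene spermatocytes, 5831 to 7682 in Sertoli cells and 6542 to 10054 in spermatogonia plus early spermatocytes. The part of these other cells in the values below was not tested, and no marker was listed at 0. The GAPDH control's 3' over 5' signal, which rises with RNA degradation, was 2.13 ± 0.306 in round spermatids and 1.22 ± 0.193 in pachytene spermatocytes (SD, n = 4 each). The beta-actin control went the other way, with 1.90 ± 0.0962 in round spermatids and 2.23 ± 0.231 in pachytene spermatocytes (SD, n = 4 each). The part of RNA quality in the cell values was not tested. Across probe sets, an array's mean correlation with the other arrays of its group ran from 0.898 to 0.969.

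In round spermatids, the 98 genes had a median signal of 641, against 102 in pachytene spermatocytes, 21.0 in spermatogonia plus early spermatocytes and 29.3 in Sertoli cells (array signal, linear). The ratio of round spermatids to the next highest group had a median of 6.07 and ranged from 4.02 (Tmem239) to 19.3 (Mtnap1, which encodes a protein of mitochondrial nucleoids). In all 98 genes the 4 round spermatid samples lay above every sample of the other 3 cell groups (11.1% of 20257 probe sets tested did so), as the choice of genes makes likely. By limma with Benjamini-Hochberg adjustment, all 98 were at least 2-fold higher in round spermatids than in pachytene spermatocytes, against 8.90% of probe sets, and nothing is read from this count.

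Along the cycle the genes differed in when they rose and in how long they stayed. As a percentage of each gene's highest stage mean, the median over the 98 genes was 17.7% at stage I, 28.4% at II-III, 55.6% at IV-V, 76.6% at VI, 92.9% at VIIa.b, 100% at VIIc.d, 83.1% at VIII, 58.5% at IX-XI, 40.4% at XII and 24.0% at XIII-XIV. In the 16 genes highest at VIII the median was 11.9% at I, 8.48% at II-III, 11.9% at IV-V and 19.3% at VI. With means below 20 set to 20, the ratio of the highest to the lowest stage mean had a median of 7.10. Its lowest value was 2.01 (Pim1). In 14 genes the lowest stage mean was below 20, so their ratios are lower bounds, such as at least 153 for Fam209, at least 75.4 for 1700122O11Rikl and at least 74.8 for Garin4. Going back from the peak, 50% of the maximum was first reached at IV-V in 48 genes, at VI in 18 and at VIIa.b in 17. Going forward, it was last held at VIII in 30 genes, at IX-XI in 20 and at XII in 22. The median gene was at or above 50% of its maximum in 5 of 10 stage groups.

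**Figure D1:**
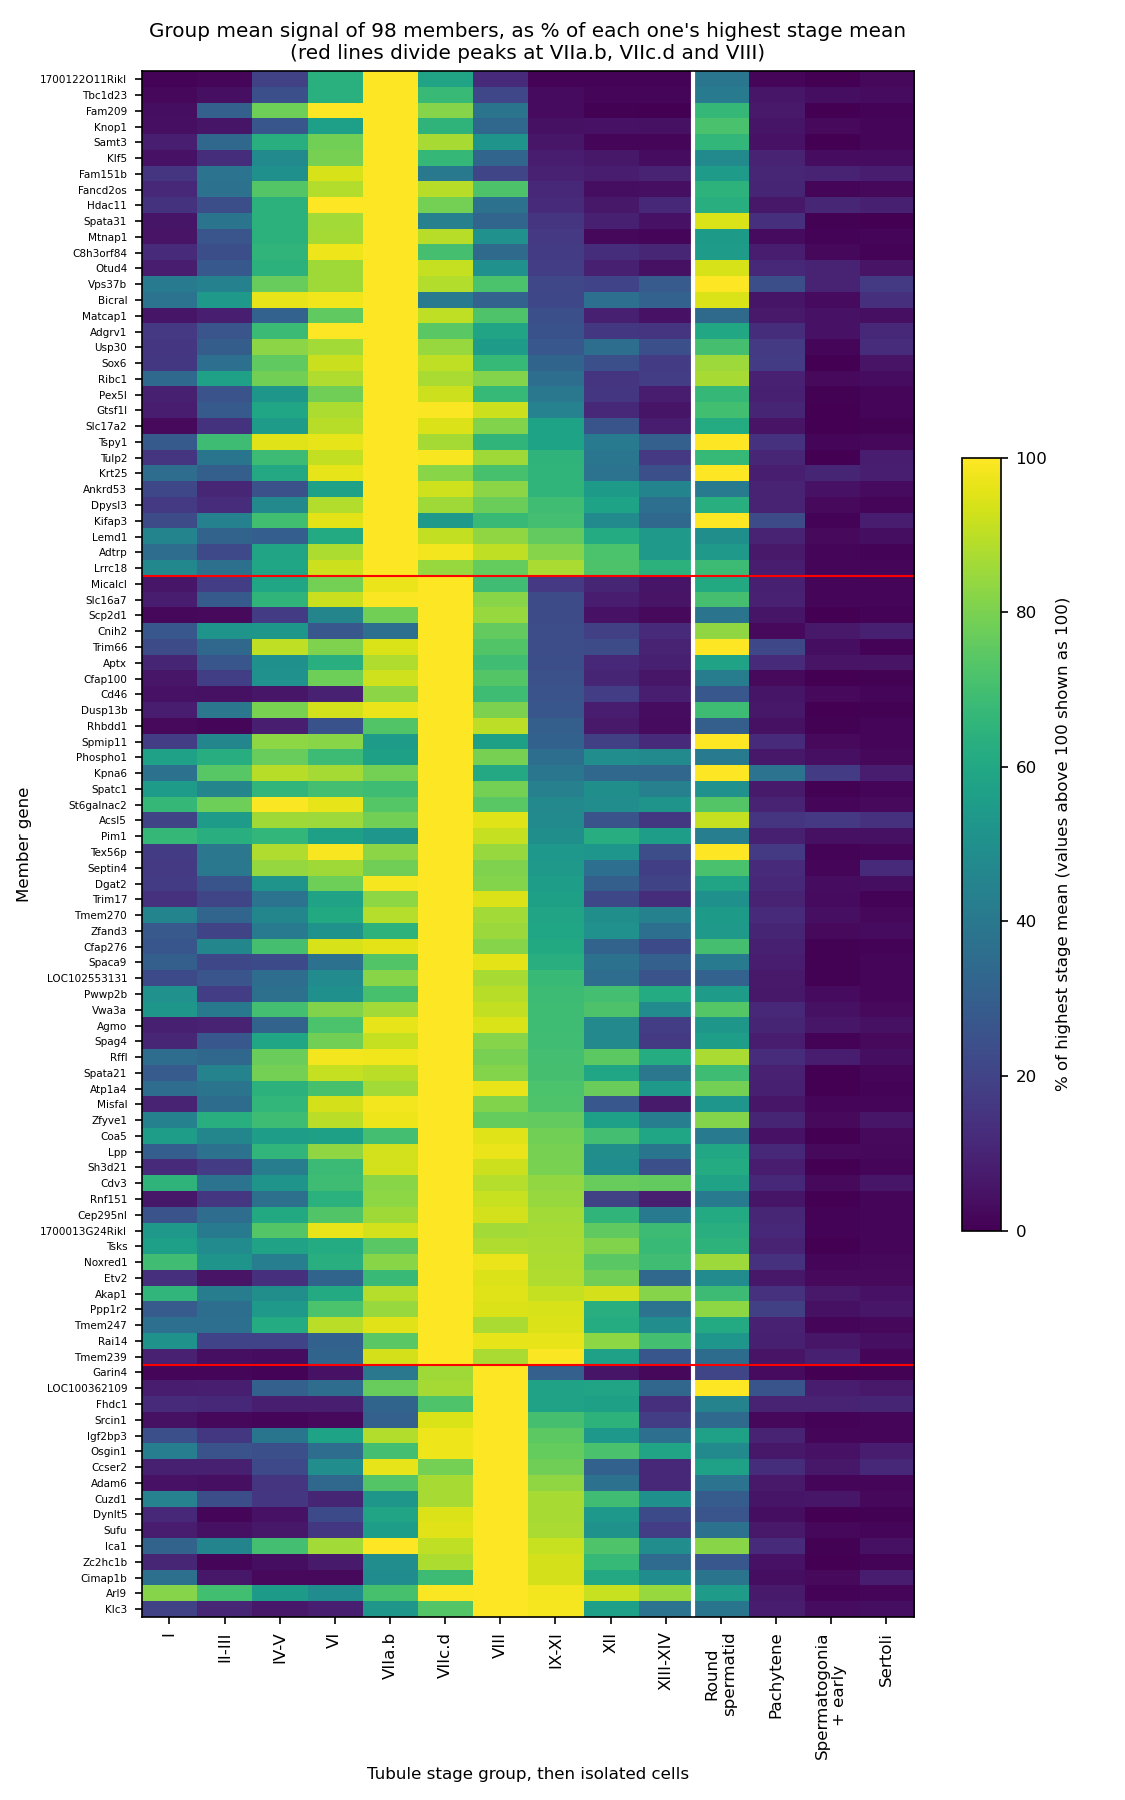
Group mean signal of each of the 98 genes (vertical axis) in 10 tubule stage groups and, right of the white line, 4 isolated cell groups (horizontal axis), in percent of its highest stage mean. Red lines divide the 32 genes highest at VIIa.b, the 50 at VIIc.d and the 16 at VIII, and within each block the genes are ordered by their level at IX-XI, lowest on top.

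Which stage was highest was not resolved for most genes. The second-highest stage lay outside VIIa.b to VIII in some of the 98: VI in 22 genes, IX-XI in 6 and IV-V in 3. Of the 32 genes highest at VIIa.b, 17 had VI second. In only 6 of 98 genes did all samples of the highest stage lie above all samples of the second-highest stage (1.68% of 22260 probe sets tested did so): 1700122O11Rikl, Tbc1d23, Klf5, Fancd2os and Knop1 at VIIa.b, and Garin4 at VIII. Between the highest and the lowest stage the samples overlapped in none of the 98 (56.3% of probe sets tested did not overlap). Highest stage and IX-XI did not overlap in 68 of 98, where 5.91% of all probe sets tested were highest at VIIa.b, VIIc.d or VIII and clear of IX-XI. The rule fixed the peak stage for the 98 genes but not for all probe sets, so these shares are not alike. By limma, 97 of the 98 genes were stage-regulated (adjusted p under 0.05 over the 10 stages and at least 2-fold between stages), against 32.5% of probe sets, and Pim1 missed the 2-fold criterion on the log2 scale.

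The timing of the changes was described by limma contrasts between adjacent stages (adjusted p under 0.05 and at least 2-fold, each adjusted over 22260 probe sets). Toward the peak, 26 genes were higher at II-III than at I (2.33% of probe sets were), 42 higher at IV-V than at II-III (1.29%), 15 higher at VI than at IV-V (0.283%) and 15 higher at VIIa.b than at VI (1.42%). In the other direction, 1 gene, Cimap1b, was lower at IV-V than at II-III (0.822%), none was lower at VI than at IV-V (0.184%) and none lower at VIIa.b than at VI (0.746%). Within the peak, few steps passed: 3 genes were higher (Srcin1, Fhdc1 and Cnih2, background 0.615%) and 3 lower (Spata31, Fam151b and Bicral, 0.508%) at VIIc.d than at VIIa.b, and 5 were lower at VIII than at VIIc.d (0.296%). Those 5 were Fam209, 1700122O11Rikl, Tbc1d23, Klf5 and C8h3orf84, all highest at VIIa.b. None was higher at VIII than at VIIc.d (0.234%). After the peak, 30 genes were lower at IX-XI than at VIII (2.45%), 22 lower at XII than at IX-XI (0.692%) and 19 lower at XIII-XIV than at XII (0.566%). None was higher over these 3 steps (0.948%, 0.642% and 0.368% of probe sets were). Of the 30, 18 were highest at VIIa.b, 11 at VIIc.d and 1, Garin4, at VIII. From XIII-XIV to I, 13 genes were lower at I (0.530%) and 7 higher (0.867%: Fam209, Mtnap1, Samt3, Fancd2os, Dusp13b, Trim66 and Cnih2). From I to II-III, 6 were lower at II-III (1.31%): Dynlt5, Zc2hc1b, Cimap1b, Ankrd53, Pwwp2b and Rai14. Without replicate 1 of each stage, 2 genes in place of 5 were lower at VIII than at VIIc.d, and without replicates 2 and 3 of VIIc.d, 1 in place of 3 was lower at VIIc.d than at VIIa.b. The stage contrasts were used to choose the genes, so these counts are a description.

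Stage I, the opposite end of the cycle, still held at least 50% of the peak in 14 of the 98 genes, of which 13 were highest at VIIc.d and 1, Arl9, at VIII. Arl9 had 1623, 2176, 2073, 1658 and 1653 at VIII, against 1482, 1569.5, 1460.5, 1459.8 and 1540.4 at I, and the groups did not overlap. Akap1 had 1935, 2181, 2084, 2043 and 2148 at VIIc.d, against 1367, 1521, 1184, 1343 and 1427 at I, with no overlap. No gene highest at VIIa.b held 50% of its peak at stage I.

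Genes of the 3 peak stages differed in the level left at IX-XI, and before the peak in the level at VI. Sorting genes by their highest stage makes such an order likely, so these levels are a description. The runs with 1 replicate number left out sorted the genes anew in the same way. At VI the median was 87.9% of the peak in genes highest at VIIa.b, 71.3% in those at VIIc.d and 19.3% in those at VIII. At IX-XI the median was 24.8% of the peak in the 32 genes highest at VIIa.b, 65.2% in the 50 highest at VIIc.d and 85.1% in the 16 highest at VIII. With 1 replicate number left out, these 3 medians ran from 22.3% to 26.5%, from 59.8% to 67.9% and from 77.9% to 88.1%, an alternative added after seeing the data. In the 149 probe sets (145 genes) that met the same cell rule and were highest at IV-V or VI it was 16.8%. In 40 of the 98 genes less than 50% was left (22 highest at VIIa.b, 17 at VIIc.d and 1 at VIII), and in 6 less than 10% with IX-XI means below 20 set to 20, all highest at VIIa.b. These 6 were 1700122O11Rikl (at most 1.33%), Tbc1d23 (2.76%), Fam209 (2.91%), Samt3 (5.96%), Klf5 (8.01%) and Fam151b (9.37%). At the other end were Tmem239 (99.3%), Klc3 (98.6%), Arl9 (98.2%), Rai14 (96.4%) and Tmem247 (94.8%).

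**Figure D2:**
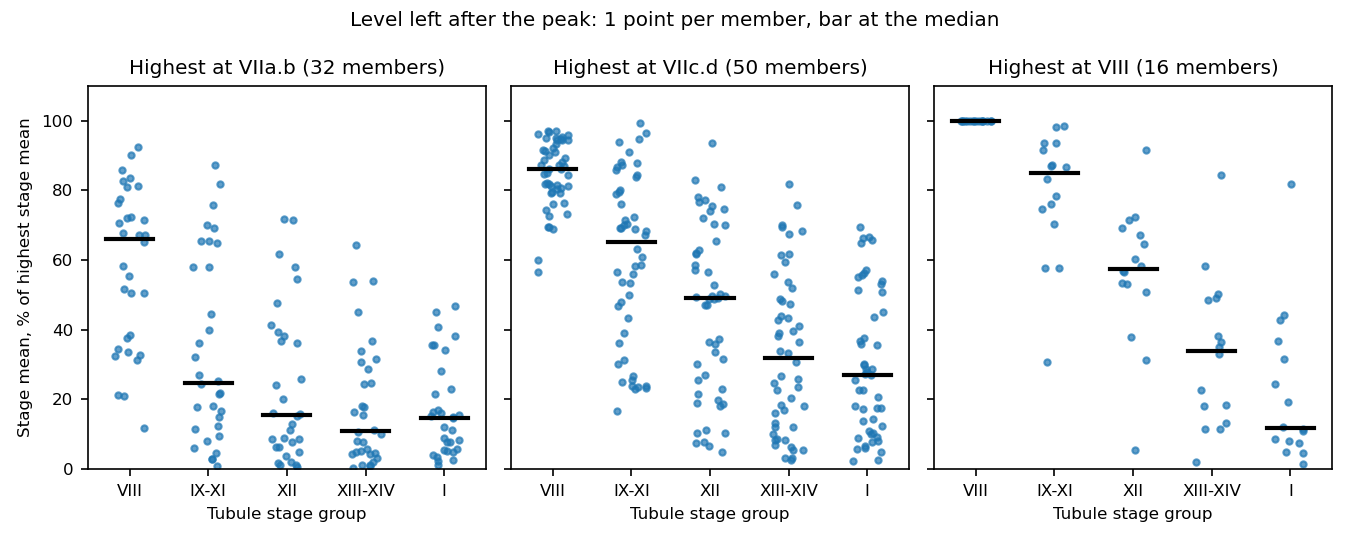
Stage mean in percent of the gene's highest stage mean (vertical axis) at VIII, IX-XI, XII, XIII-XIV and I (horizontal axis), with 1 point per gene, a bar at the median and 1 panel per peak stage. At IX-XI the medians were 24.8%, 65.2% and 85.1% for genes highest at VIIa.b, VIIc.d and VIII.

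The isolated round spermatids held a smaller share of the tubule level for genes highest at VIII than for those highest at VIIa.b or VIIc.d. Their mean signal was a median of 66.4% of the highest stage mean for genes highest at VIIa.b, 60.3% for those at VIIc.d and 38.7% for those at VIII. It was 82.1% for round spermatid genes highest at IV-V or VI and 40.7% for those highest at IX-XI. In 9 of the 98 genes the round spermatid mean exceeded the highest stage mean, most in Kpna6, for an importin alpha of nuclear import. Kpna6 had 984, 765, 899.5 and 778 in round spermatids, against 483, 508, 496, 388 and 342 at its highest stage, VIIc.d, and the samples did not overlap. These comparisons were not tested, because elutriated cells and tubules were different preparations.

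The genes were set against 8 lists of spermatid genes compiled by hand, which do not hold every gene of a function. Of the list for the acrosome and sperm head, 4 of 25 measured genes were in the group. Fam209, which in the mouse encodes a nuclear envelope protein needed to anchor the acrosome, had a stage ratio of at least 153. Its signal was 2652, 3232, 3046, 2917 and 3372 at VI, 3398, 2890.5, 3028, 3031 and 2919.6 at VIIa.b and 2435, 2553, 2753, 2319 and 2419.6 at VIIc.d. It was 875, 1312, 1219, 1233 and 1258 at VIII, 122, 115, 62.3, 61.0 and 84.3 at IX-XI and 1.83, 18.5, 13.8, 30.3 and 29.8 at XII. The samples of VI and VIIa.b overlapped, while VIII lay below both and IX-XI far below VIII (log2 change -3.70). In round spermatids Fam209 had 2061, 2047, 2086 and 1959.6, against 221, 266, 266 and 105 in pachytene spermatocytes.

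Garin4, of a family of Golgi-associated proteins that bind RAB2, some of which act in acrosome formation in the mouse, came on later than Fam209. It kept 30.8% of its peak at IX-XI, against 2.91% for Fam209. Its signal was 31.0, 82.0, 58.7, 89.8 and 90.6 at VI, 615, 470.3, 509, 687 and 720.3 at VIIa.b and 1294, 1145, 1166, 1407 and 1401 at VIIc.d. It was 1439, 1503, 1586, 1520.1 and 1433 at VIII, 447, 482, 448, 426 and 501 at IX-XI and 63.6, 67.5, 56.6, 95.6 and 131 at XII. No sample of VI reached any of VIIa.b, none of VIIa.b any of VIIc.d, and all samples of VIII lay above those of the neighbouring stages. From VI to VIIa.b the log2 change was 3.07, and from VIII to IX-XI it was -1.69. Round spermatids had 291, 341, 353 and 273, against 55.0, 41.3, 50.05 and 18.7 in pachytene spermatocytes. All 4 lay below every tubule sample of VIIa.b to IX-XI.

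Spaca9, an acrosome-associated protein that also lies inside sperm microtubules, changed less. It had 3158, 3148, 3333, 3577 and 3674 at VIIc.d, against 746, 813, 755, 703 and 659 at II-III, with no overlap, and 63.1% of its peak was left at IX-XI. Spata31, of a family of spermatid proteins, had 547, 449, 451, 392 and 385 at VIIa.b, against 38.3, 27.3, 7.51, 14.2 and 25.2 at XIII-XIV. At VIIc.d its samples were spread, with 357, 110.1, 111, 205 and 188, and the lowest of these were replicates 2 and 3, whose GAPDH 3' to 5' ratios of 1.78 and 2.05 exceeded the 1.17 to 1.35 of the others. The part of RNA quality in this value was not tested. The mean of those 2 samples over that of the other 3 had a median of 1.07 in the 50 genes highest at VIIc.d (above 1 in 37), 1.02 in the 32 highest at VIIa.b (above 1 in 17) and 0.907 in the 16 highest at VIII (above 1 in 3), against 1.02 over all 8082 probe sets with a VIIc.d mean over 100. Without the 2 samples, 92 of the 98 genes met the rule and 1 further gene did, with 37 highest at VIIa.b, 41 at VIIc.d and 15 at VIII.

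Of the flagellum list, 4 of 43 measured genes were in the group. Spag4 encodes a SUN-domain protein that, in the rat, binds an outer dense fibre protein of the tail. It had 3256, 3516, 3731, 3673 and 3737 at VIIc.d, against 317, 259.9, 300.2, 512 and 569 at I, and 2209, 2648, 2424, 2524 and 2618 at IX-XI. All IX-XI samples lay below all VIIc.d samples, yet 69.4% of the peak was left. Dynlt5, a dynein light chain of the Tctex type, had 1151, 1484, 1397, 1462 and 1539 at VIII and 937, 1239, 1272, 1398 and 1269 at IX-XI, against 62.6, 30.5, 9.45, 6.25 and 9.38 at II-III. The samples of VIII and IX-XI overlapped, and the step between them had a log2 change of -0.21 (limma, adjusted p = 0.725).

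Cimap1b, a microtubule-associated protein of the outer dense fibre type, was near the bottom of the scale through IV-V and VI and then came on. Its signal was 4.42, 6.49, 49.2, 3.54 and 12.1 at VI and 288, 224, 272, 307 and 316 at VIIa.b, 489, 641, 563, 575 and 622 at VIII and 509, 580.0, 504, 552 and 563 at IX-XI. VIII and IX-XI overlapped. In stage I tubules, Cimap1b still had 279, 202, 172, 223 and 187. Septin4, a filament protein of the sperm annulus, was flatter across IV-V to VIII, with 432, 688, 583, 533 and 569 at VIIc.d, against 80.04, 72.2, 75.1, 142 and 112 at I. Its VIIc.d samples overlapped those of every stage group from IV-V to VIII.

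**Figure D3:**
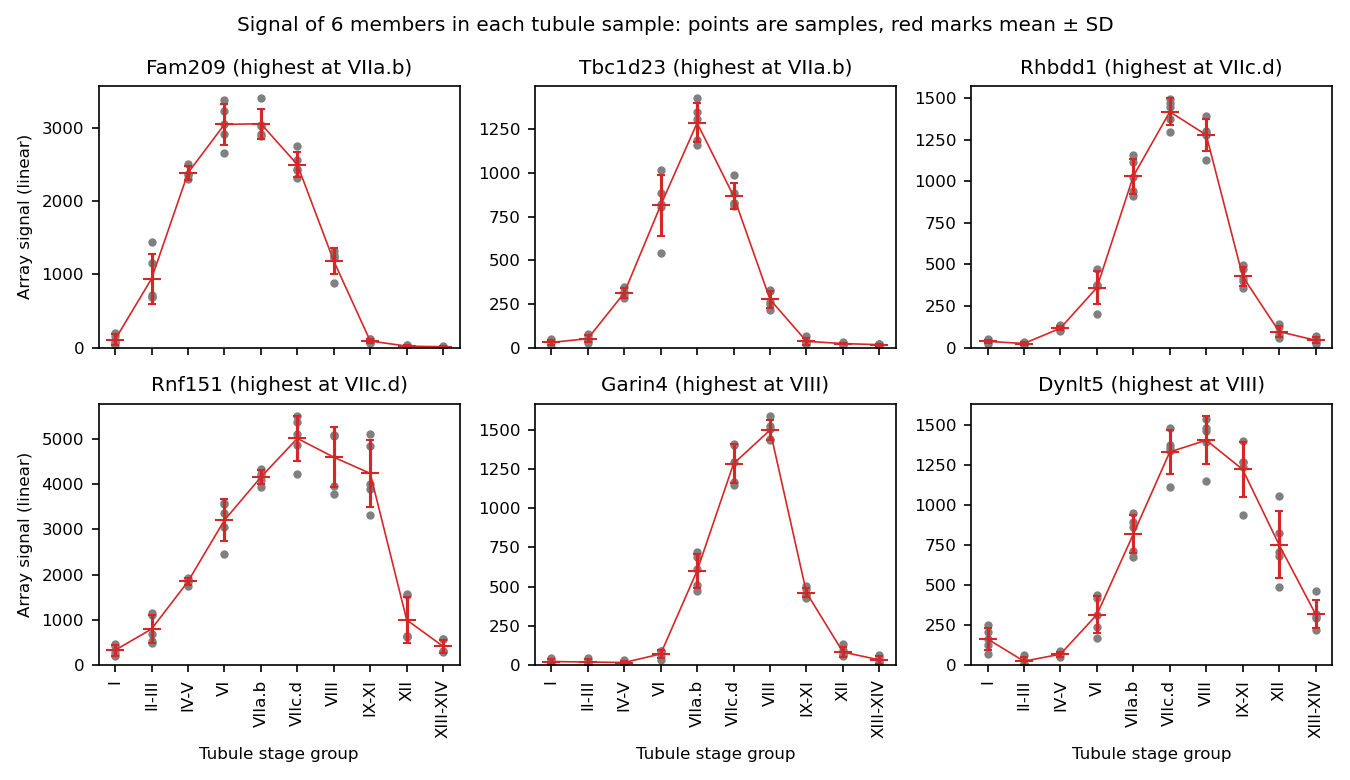
Array signal (vertical axis, linear) of Fam209, Tbc1d23, Rhbdd1, Rnf151, Garin4 and Dynlt5 in every tubule sample of the 10 stage groups (horizontal axis), with grey points for samples and red marks for mean ± SD. Fam209 and Tbc1d23 were near the bottom of the scale by IX-XI, whereas Rnf151 and Dynlt5 kept 84.6% and 87.0% of their peak there.

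Of the list of energy metabolism isozymes, 2 of 22 measured genes were in the group. Slc16a7, the monocarboxylate transporter MCT2, had 2934, 2841, 2615, 2095 and 2279.8 at VIIc.d, against 143, 127, 125, 138 and 151 at XIII-XIV. It was 2535 ± 167 at VIIa.b and 2347 ± 290 at VI (SD, n = 5 each), so that the highest stage was not resolved, and 23.0% was left at IX-XI. Atp1a4, the sodium pump subunit of sperm, had 2472, 2314, 2289.8, 2444 and 2516 at VIIc.d, against 909, 603, 895, 923 and 965 at I. It kept 71.5% at IX-XI and had a ratio of 9.19 between round spermatids and the next cell group. Its round spermatid samples had 1968, 2145, 1919 and 1596, against 206, 225, 261 and 138 in pachytene spermatocytes.

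Of the list for ubiquitin and protein turnover, 2 of 29 measured genes were in the group, and they parted after stage VIII. The deubiquitinases Otud4 and Usp30, described below, are members outside that list. Rnf151, a RING finger protein of the round spermatid, had the highest stage mean of the 98 genes. It had 4224, 5368, 5503, 5107 and 4856 at VIIc.d, 5085, 5080.1, 5059.7, 3788 and 3969 at VIII, 3317, 5114, 4849, 3896 and 4012 at IX-XI and 634, 612, 638, 1538 and 1564 at XII. VIIc.d, VIII and IX-XI overlapped, and XII lay below all of them (log2 change from IX-XI -2.21). Rhbdd1, a rhomboid protease that binds ubiquitin, had 1299.7, 1376, 1499, 1450.5 and 1471 at VIIc.d, 1129.8, 1392, 1304, 1281 and 1291 at VIII and 356, 398, 496, 419 and 469.7 at IX-XI. Its IX-XI samples all lay below its VIII samples (log2 change -1.58), against -0.12 for Rnf151 over the same step.

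Of the list of kinases, phosphatases and their regulators, 3 of 36 measured genes were in the group. Dusp13b, a dual-specificity phosphatase, had 1716, 1808, 2028, 2049 and 2021 at VIIc.d, against 11.6, 51.5, 38.6, 123 and 80.4 at XIII-XIV, and 26.6% was left at IX-XI. Ppp1r2, inhibitor 2 of protein phosphatase 1, had 1598, 1679, 1770.3, 1714 and 1827 at VIIc.d, against 533, 381, 505, 549 and 494 at I, and 94.0% was left at IX-XI. Pim1, a serine/threonine kinase, had the smallest stage ratio. It had 703, 865, 923, 793 and 695 at VIIc.d, against 430.2, 453, 418, 358 and 325 at IX-XI, and the 2 groups did not overlap. Its round spermatid samples were spread, with 367, 564, 246 and 189, yet all lay above 77.9, 61.7, 77.1 and 64.8 in pachytene spermatocytes. Of the list for membrane traffic and cytoskeleton, 1 of 29 measured genes was in the group: Spatc1, the centrosome protein speriolin. Tbc1d23, Klc3 and Arl9, described below, are members outside it. Spatc1 had 774, 1038, 934, 763 and 780.0 at VIIc.d, against 262, 385, 376, 433 and 406 at XIII-XIV.

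None of the 14 measured genes listed for chromatin condensation, such as transition proteins and protamines, was in the group. None of the 29 listed as transcription and RNA regulators of spermatids was, while the members Klf5, Sox6 and Igf2bp3 stand outside that list. Over all probe sets, 32.5% were stage-regulated by limma and 8.93% were so with their highest mean at VIIa.b, VIIc.d or VIII. Of 25 acrosome genes tested, 23 were stage-regulated and 4 of these were highest at VIIa.b to VIII, the same 4 named above. Of 43 flagellum genes, 25 were stage-regulated and 6 of these highest there, of 21 energy genes 12 and 4, and of 28 ubiquitin genes 17 and 6. The counts were 17 and 5 of 34 kinase and phosphatase genes, 11 and 4 of 24 membrane traffic and cytoskeleton genes, and 13 and 2 of 28 transcription and RNA regulators. Of 13 chromatin genes 9 were stage-regulated, all of them highest at IX-XI.

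Between round spermatids and pachytene spermatocytes, 8.90% of probe sets were higher and 13.1% lower by limma. Of the acrosome list, 18 of 25 genes tested were higher and 1 lower, and of the flagellum list 20 of 43 higher and 3 lower. The transcription and RNA regulators had 3 of 26 higher and 8 lower. Of the others, 6 of 13 chromatin genes were higher and none lower, 8 of 20 energy genes higher and 1 lower, and 9 of 27 ubiquitin genes higher and 1 lower. Of kinases and phosphatases, 16 of 35 were higher and 2 lower, and of membrane traffic and cytoskeleton genes 4 of 25 higher and 1 lower. Members are part of these counts, and the lists were not tested as sets.

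Further genes marked the extremes at each peak stage. The noncoding RNA 1700122O11Rikl had 1628, 1474, 1422, 1535 and 1478 at VIIa.b, 109, 233, 189, 192 and 175 at VIII and 13.5, 8.18, 6.30, 16.3 and 15.6 at IX-XI. Tbc1d23, a TBC-domain protein of traffic between endosomes and the Golgi, had 1427, 1159, 1189, 1348 and 1309 at VIIa.b, 213, 328, 325, 252 and 259 at VIII and 21.7, 64.4, 39.3, 17.6 and 34.8 at IX-XI. Both fell at each step from VIIc.d to IX-XI, with log2 changes from VIII to IX-XI of -3.44 for 1700122O11Rikl and -2.88 for Tbc1d23. Fancd2os averaged 2857 ± 100 at VIIa.b, against 109 ± 23.6 at XII, and 11.6% was left at IX-XI. Slc17a2, of the sodium phosphate transporter family, averaged 1248 ± 95.0 at VIIa.b, against 34.1 ± 31.7 at I, and unlike the genes above kept 58.0% at IX-XI. Klf5, a zinc finger transcription factor, averaged 1172 ± 87.7 at VIIa.b, against 38.9 ± 11.8 at XIII-XIV (SD, n = 5 each). Samt3, on the X chromosome, averaged 952 ± 124 at VIIa.b, against 11.7 ± 5.88 at XII (SD, n = 5 each).

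At VIIc.d, Scp2d1, which carries a sterol carrier domain, had 2919.8, 3382, 3285, 2832 and 3137, against 75.6, 28.3, 65.5, 97.9 and 86.3 at I. Its IX-XI samples, with 561, 813, 849, 645 and 749, lay below all VIIc.d and all VIII samples. Cd46, a complement regulator that in rodents is made mainly in testis and lies in the acrosomal membrane, came on mainly between VI and VIIa.b. It averaged 1262 ± 224 at VIIc.d and 1043 ± 231 at VIIa.b, against 115 ± 49.4 at VI (SD, n = 5 each; log2 change from VI to VIIa.b 3.18). Micalcl averaged 1209 ± 67.2 at VIIc.d, against 67.0 ± 8.65 at XIII-XIV, and Cfap100, a cilia and flagella associated protein, 514 ± 78.3, against 30.4 ± 17.2 at I (SD, n = 5 each). Tmem239 rose earlier, with log2 changes of 2.98 from IV-V to VI and 1.58 from VI to VIIa.b. It had 98.6, 186, 271, 230.4 and 182 at VI, 593, 511, 549.8, 525 and 629 at VIIa.b, 627, 517, 536, 818 and 509 at VIIc.d and 514, 721, 617, 528 and 604 at IX-XI, and the last 3 groups overlapped.

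At VIII, Zc2hc1b had 659, 724, 695, 748 and 781, against 6.56, 8.33, 16.6, 7.40 and 6.93 at II-III, and 648, 679.6, 733, 718 and 598 at IX-XI. Klc3, a kinesin light chain that in rat spermatids associates with outer dense fibres and mitochondria, had 808, 879.8, 850.1, 676 and 699 at VIII and 639, 703, 811, 877 and 828 at IX-XI, against 61.5, 34.9, 65.5 and 42.1 at IV-V. In both genes VIII and IX-XI overlapped. Adam6, of the ADAM family of sperm surface proteins, averaged 1840.5 ± 206 at VIII, against 77.6 ± 18.7 at II-III (SD, n = 5 each), and kept 83.4% at IX-XI. Sufu, a negative regulator of Hedgehog signalling, averaged 2486 ± 111 at VIII, against 116 ± 33.0 at II-III (SD, n = 5 each). Arl9, a small GTPase of the ARF-like family, varied least in this block, with 1836 ± 266 at VIII, against 891 ± 153 at VI (SD, n = 5 each).

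Other probe sets of the same genes are those that did not meet the rule, which was applied to every probe set with 1 gene. Their counts are therefore a description, and nothing is read from them against the share over all probe sets. There were 38 for 29 of the 98 genes, and 28 of them, for 24 genes, were bright enough to test over stages. By limma, 12 of these 28 were stage-regulated (32.5% of all probe sets were), and 1 of the 12, for Igf2bp3, was highest at VIIa.b, VIIc.d or VIII (8.93% of all probe sets were stage-regulated and highest there). The other 11 were highest at I (1), II-III (2), IV-V (5), VI (1), IX-XI (1) and XII (1). Against the mean of the other 3 cell groups, 10 of 30 tested were higher in round spermatids (18.0% of all probe sets) and 6 were lower (29.6%). Probe sets of 1 gene can detect different transcript ends, which was not tested.

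Igf2bp3, an RNA-binding protein, and Klc3 were the genes whose second probe set most resembled the first. For Igf2bp3 the second probe set had 1332 ± 72.8 at VIIc.d, against 241 ± 24.8 at II-III (SD, n = 5 each), and it correlated at 0.96 with the first over 49 tubule samples, while the remaining one was highest in pachytene spermatocytes among the 4 cell groups. For Klc3 the second probe set had 1220.0 ± 324 at IX-XI and 1061 ± 59.6 at VIII (SD, n = 5 each), against 56.7 ± 3.01 at IV-V (n = 4), with a correlation of 0.96. The correlations describe samples that share stages, and 9 of the 28 exceeded 0.5 while 4 were below 0.

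In several genes the second probe set followed another time course. Akap1, which anchors protein kinase A to mitochondria, was highest at VIIc.d in the chosen probe set (2078 ± 96.2, against 876 ± 121 at II-III; SD, n = 5 each). A second Akap1 probe set was highest at IV-V, with 979 ± 38.7 (n = 4), against 85.5 ± 5.38 at XIII-XIV (n = 5), and correlated at -0.46 with the first. The remaining Akap1 probe set averaged 857 ± 90.9 at XII, against 367 ± 36.1 at II-III (SD, n = 5 each). For Otud4, a deubiquitinase, the second probe set was highest at IV-V and had 311 ± 33.6 in round spermatids (n = 4), against 543 ± 36.4 in spermatogonia plus early spermatocytes (n = 3), where it was highest among the cell groups. The chosen Otud4 probe set had 1089 ± 95.5 in round spermatids, against 114 ± 24.3 in spermatogonia plus early spermatocytes.

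For Rnf151 the second probe set was highest at VI (299.7 ± 11.2, n = 5) and had 245 ± 23.4 in round spermatids (n = 4), against 230.2 ± 18.0 in spermatogonia plus early spermatocytes (n = 3) and 189.9 ± 14.5 in Sertoli cells (n = 4). For Usp30, a mitochondrial deubiquitinase, it was highest at IV-V (267 ± 18.0, n = 4) and had 158 ± 20.9 in round spermatids, against 153 ± 3.92 in Sertoli cells (n = 4 each). For Ppp1r2, both further probe sets were lowest in round spermatids among the 4 cell groups. They had 48.6 ± 2.52 and 189 ± 25.4 there, against 652 ± 104 and 673 ± 63.7 in Sertoli cells (SD, n = 4 each). The second probe set of Coa5, a factor of cytochrome oxidase assembly, had 81.6 ± 5.11 in round spermatids, against 532 ± 16.7 in Sertoli cells (SD, n = 4 each), also the highest of the cell groups. In Ppp1r2, Coa5 and Otud4 the probe sets of 1 gene thus had different cell groups highest, and these were not the only ones. Of the 28 other probe sets tested over stages, 14 were highest in round spermatids and 6 in Sertoli cells. Another 5 were highest in spermatogonia plus early spermatocytes and 3 in pachytene spermatocytes. The second probe set of Rhbdd1 had 53.0 ± 7.01 in round spermatids, against 117 ± 7.48 in pachytene spermatocytes (SD, n = 4 each). That of Tbc1d23, too dim to test over stages, had 17.3 ± 1.79 in round spermatids, against 90.1 ± 19.7 in Sertoli cells (SD, n = 4 each). In spermatogonia plus early spermatocytes it had 90.9 ± 26.7 (SD, n = 3).

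**Figure D4:**
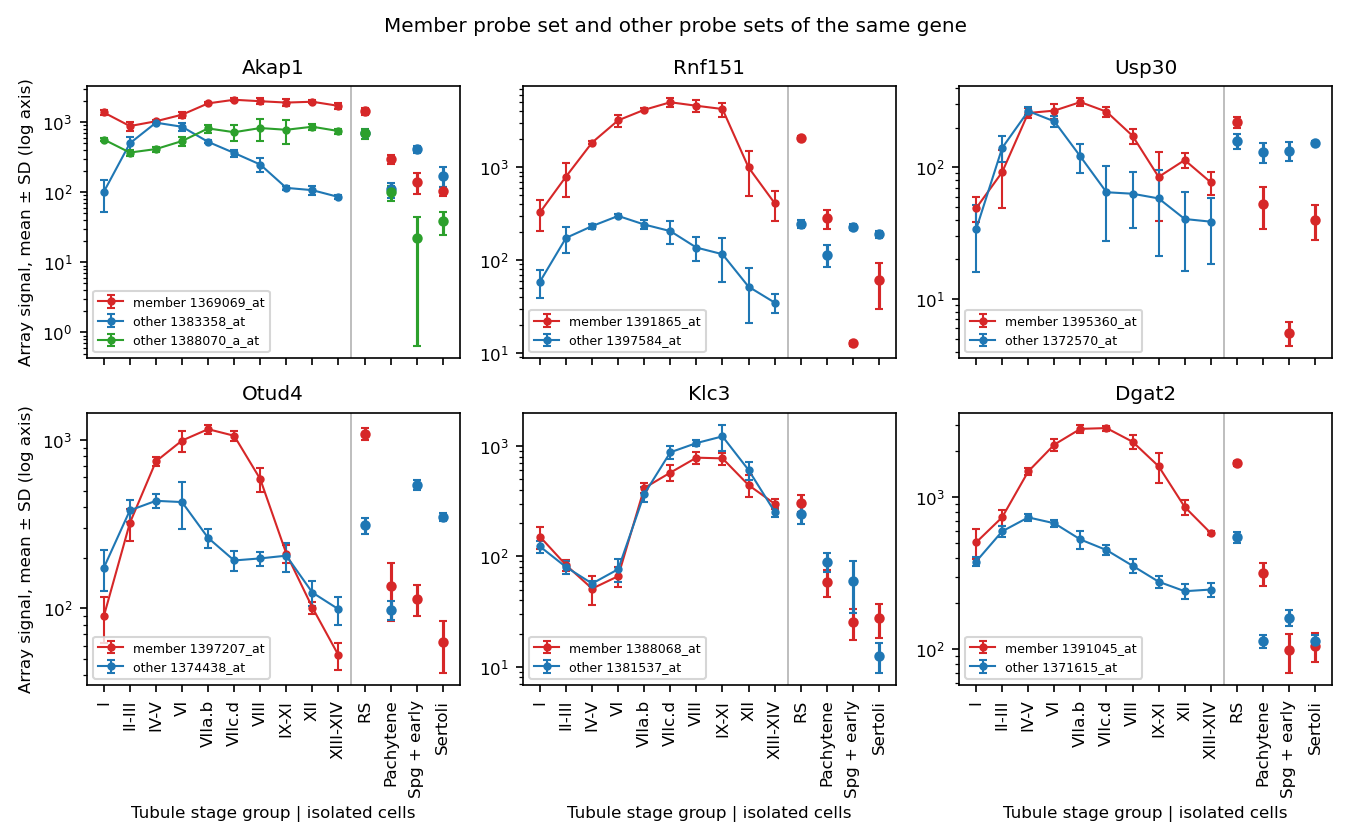
Array signal (vertical axis, log scale; mean ± SD of the samples) of the chosen probe set (red) and the other probe sets (blue, green) of Akap1, Rnf151, Usp30, Otud4, Klc3 and Dgat2, over 10 tubule stage groups and, right of the line, round spermatids (RS), pachytene spermatocytes, spermatogonia plus early spermatocytes (Spg + early) and Sertoli cells. The Klc3 probe sets ran together, while those of Akap1, Otud4 and Usp30 were highest at different stages.

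Whole testis samples were not used to choose the genes and were compared with the stage groups. The stage means on the other side were used in that choice, so the comparison is not independent of it. In limma's contrast with the mean of the 10 stages on the log2 scale, 5 of 98 genes were at least 2-fold higher in whole testis (2.31% of 22506 probe sets were) and none was 2-fold lower (1.20%). At any size, 21 were higher (15.2%) and 28 lower (17.4%), with a median log2 difference of -0.01 in the 98 genes and of -0.05 over all probe sets. The 5 were 1700122O11Rikl (1.56), Garin4 (1.18), Fam209 (1.17), Srcin1 (1.06) and Rhbdd1 (1.06). A mean of log2 values lies below the log2 of the mean wherever stages differ, and for genes that are near the bottom of the scale in several stages the gap is large. The comparison was therefore repeated, as an alternative chosen after seeing the data, with the linear mean over the 10 stages of same-numbered tubule samples (4 averages).

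On that scale none of the 5 was higher. Garin4 (-0.55, adjusted p = 0.0118) and Fam209 were lower in whole testis. The other 3 overlapped the tubule averages and did not pass, with log2 differences of -0.35 for 1700122O11Rikl (adjusted p = 0.1001), -0.19 for Rhbdd1 (adjusted p = 0.379) and -0.046 for Srcin1 (adjusted p = 0.826). At any size, 62 of 98 genes were lower in whole testis (15.6% of 17192 probe sets were) and 1, Pim1, was higher (12.1%), with a median log2 difference of -0.40 in the 98 genes and of -0.09 over all probe sets. At 2-fold, 7 were lower (0.954%) and none higher (1.90%). As group means, whole testis had a median of 76.3% of the linear stage mean in the 98 genes, 76.7% in the round spermatid genes highest at IV-V or VI, 80.4% in those highest at IX-XI and 96.4% over 10556 probe sets with a stage mean of at least 100. The median shift in round spermatid genes of other peak stages was of similar size, and the difference between these sets was not tested. The average weights the 10 stage groups equally, while whole testis holds them in their own proportions.

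Spag4 had 1490.1, 1459, 1518, 1468 and 1469 in whole testis, against tubule averages of 2064 to 2224, and the samples did not overlap (log2 difference -0.52, limma, adjusted p = 1.43e-04). Fam209 had 899.6, 1161, 862, 902 and 826 in whole testis, against 1323 to 1402, again with no overlap (log2 difference -0.54, adjusted p = 0.00208). Among the lowest was Adgrv1, a large adhesion receptor known from hair cells, with 41.9 to 91.9 in whole testis, against 152 to 174 (log2 difference -1.16, adjusted p = 0.00106). Pim1, the exception, had 708, 688, 713, 805 and 725 in whole testis, against 508 to 575 (log2 difference 0.41, adjusted p = 0.00180). Spaca9 had 2002, 1326, 1699, 1337 and 1849.8, against 1702 to 1751, and overlapped. The summed signal of 8 Leydig cell markers was 2167 to 2702 in whole testis, against 218 to 460 in tubules, and that of 9 macrophage and blood markers 552 to 1039 against 173 to 577. Of the macrophage and blood markers, Adgre1 was highest in round spermatids among the 4 cell groups. It averaged 258 there and 322 at IV-V, against 104 in whole testis. For peritubular myoid and endothelial markers the sums were 736 to 1051 in whole testis, against 407 to 792 in tubules. The part of these cells in the whole testis values was not tested.

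**Figure D5:**
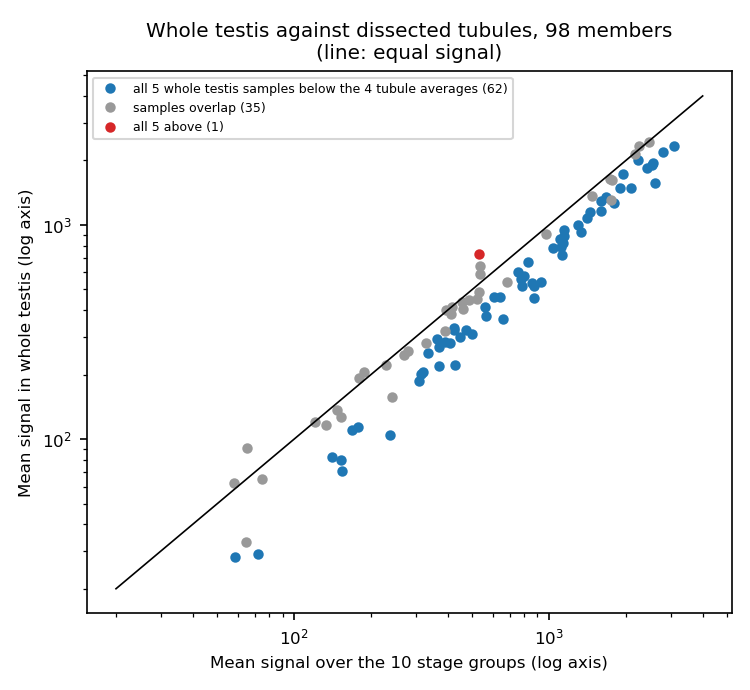
Mean signal of each of the 98 genes in whole testis (vertical axis, log scale) against its mean over the 10 stage groups (horizontal axis, log scale), with a line at equal signal. In 62 genes all 5 whole testis samples lay below the 4 tubule averages (16.8% of probe sets tested did so), in 35 the samples overlapped, and in 1, Pim1, all 5 lay above (11.8%).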

How the data were processed

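RNA of 69 samples was hybridised to Affymetrix rat arrays. The deposited values are the authors' probe set signals, linear intensity from MAS5 per the submitters' processing notes, scaled so that each array's trimmed mean (2% off each end) lies near 100 (99.9926 to 99.993). Array medians ran from 30.9 to 58.2, no detection calls were used, and the number of arrays limits the precision. Per the labels' protocols, tubule samples were independent pools of 2 rats. Whether the other replicates came from separate animals is not stated, so their p-values measure only the spread between samples.

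The 57 control probe sets were left out, which left 31042. Of these, 20826 had 1 gene in the platform annotation (20758 symbols were updated through RefSeq GRCr8), 436 had several and 9780 were not listed there. Tests used limma 3.58.1 in R 4.3.3, with trend, two-sided, on log2(signal + 5.12), the table's 10th percentile. Probe sets needed a signal above 43.7, the table median, in at least 3 samples. P-values were adjusted by Benjamini-Hochberg within each contrast, and a call needed an adjusted p under 0.05 and a 2-fold change. Fold changes of dim genes are understated by the added constant. The limma step was tested on simulated data.

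The rule for the genes, the gene lists and the tests were chosen with earlier results of these data known. Genes were named for the 8 largest stage ratios (means floored at 20) per peak stage, membership of a role list, the 5 largest whole testis differences each way, the 5 highest and lowest levels at IX-XI, or another probe set. Genes named beside counts of 5 or fewer, in lists of calls or at the edge of the rule were chosen after their values were seen. Alternatives were other pseudocounts, filters, floors, medians, quantile normalization, samples left out, a replicate block and a linear stage mean.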

Additional observations from a re-analysis of the deposited data

Results flagged for a closer look

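In 6 of 119 groups of 4 or 5 samples, the highest or lowest sample stood far from the rest by Dixon's criterion, and chance gives about 1 in 20. At stage I, replicate 2 of Atp1a4 was lowest with 603.4, against 894.6 to 964.8 in the other samples. Fam209 was highest in replicate 1 of VIIa.b with 3398, against 2890 to 3031, and in replicate 2 of whole testis with 1161, against 826.4 to 901.7. In round spermatids, replicate 2 of Klc3 was highest with 381.5, against 270.9 to 286.1, and replicate 1 of Scp2d1 was lowest with 1043, against 1221 to 1256. Zc2hc1b had 16.56 in replicate 3 of II-III, against 6.561 to 8.333 in the others, all near the bottom of the scale.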

How the results depend on the processing

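The rule gave 88 to 99 genes when 1 replicate number was left out, of which 87 to 95 were among the 98, and 98 with a floor of 10, 88 with a floor of 40, 98 with medians (84 shared, Fam209, Klc3 and Tmem239 among the 14 lost) and 106 after quantile normalization (87 shared, and 33 of them highest at VIII in place of 16). Leaving out 1 replicate number gave 95 to 98 stage-regulated genes, 191 to 207 calls between adjacent stages, 98 to 98 for round spermatids against pachytene spermatocytes, and 11 to 14 stage-regulated and 9 to 11 round spermatid calls among other probe sets. The whole testis contrast depended on the scale of the stage mean. The 5 genes 2-fold higher became 1 with a pseudocount of 20 and 0 against the linear mean (4 to 7 without 1 replicate). The 0 genes 2-fold lower became 2 with a pseudocount of 1, 1 after quantile normalization, 1 without the 2 VIIc.d samples of high 3' to 5' ratio, and 7 against the linear mean (0 to 2 without 1 replicate). At any size, 21 higher became 1 and 28 lower became 62 against the linear mean (17 to 25 and 21 to 29 without 1 replicate). Against the linear mean the log2 difference was -0.54 for Fam209 and -0.55 for Garin4, both past the threshold, and -0.35 for 1700122O11Rikl, -0.19 for Rhbdd1 and -0.046 for Srcin1, not past it, since a mean of logs lies below the log of a mean. At 25% of the peak in place of 50%, the median span was 8 stages in place of 5. The array's low end limits the genes near a signal of 20, and no cause was tested for the other changes.

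Tubule samples of the same replicate number were weakly alike, which the main fits, without a block, did not take into account. The source of this likeness was not tested. Over 216 pairs of same-numbered samples of different stages, deviations from the stage means correlated at 0.074 on average (-0.158 to 0.309), with 70 pairs above 0.1, against -0.018 over 864 pairs of different number, and 36 of 49 samples correlated best with their own number. With the replicate number as a block, 97 genes were stage-regulated, 203 calls were made between adjacent stages, 98 were higher in round spermatids than in pachytene spermatocytes, and 5 were 2-fold higher and 0 2-fold lower in whole testis. At any size the block gave 26 higher and 28 lower, and among other probe sets 12 stage-regulated and 10 higher in round spermatids.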
